A study of Mus musculus with 31 samples.

Results

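The genes described here are 35 markers of microglia and perivascular macrophages, complement components and cytokines, chosen by name from the 25497 genes matched in the thalamus of 31 mice. They comprise 10 homeostatic microglia markers, 13 general myeloid genes, 5 complement genes, 5 cytokines and chemokines, and 2 genes of perivascular macrophages and antigen presentation. Polyadenylated RNA was sequenced at postnatal day 90 in offspring of mothers under social isolation rearing (SIR) or control housing, giving 7 libraries of SIR males, 8 of SIR females, 8 of control males and 8 of control females. The housing treatment was the mother's, and the labels used here name no strain, genotype, drug, litter or batch. With no litters named, each p-value measures only how far these libraries spread, and littermates may be counted as separate samples. The library numbers of the SIR animals (1 to 15) all lie below those of the controls (16 to 31), so any difference in handling along the numbers cannot be told apart from housing.

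Microglia are the resident macrophages of the brain parenchyma, and perivascular macrophages line its vessels. In the healthy adult brain, microglia carry receptors for neuronal signals, such as Cx3cr1 for fractalkine and P2ry12 for extracellular nucleotides, and depend on the growth factor receptor Csf1r. They make the 3 chains of C1q, the recognition molecule of the classical complement pathway, which can mark synapses for removal, and they release chemokines and cytokines when activated. Trem2 is a microglial receptor for lipids and lipoproteins that signals through the adaptor Tyrobp.

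Promoter sequences are shown for 3 of the members that differed between groups in the results that follow, the chemokine Ccl3, the receptor Trem2 and the microglial surface protein Fcrls, since all 3 hold the same short motif. Each run is the 250 bases before the annotated start site, written 5′ to 3′ on the gene's strand, from RefSeq on GRCm38.p6. Capitals mark GAGGAA or its reverse complement TTCCTC, the core of the PU box, the element recognised by the macrophage transcription factor PU.1. The windows are chr11:83649379-83649628 on the minus strand for Ccl3, chr17:48346151-48346400 on the plus strand for Trem2 and chr3:87263525-87263774 on the minus strand for Fcrls.
Ccl3: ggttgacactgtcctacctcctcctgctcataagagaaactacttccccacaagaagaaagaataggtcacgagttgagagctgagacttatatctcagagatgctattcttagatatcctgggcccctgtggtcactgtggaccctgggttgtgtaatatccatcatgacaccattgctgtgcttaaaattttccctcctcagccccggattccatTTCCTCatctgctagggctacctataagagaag
Trem2: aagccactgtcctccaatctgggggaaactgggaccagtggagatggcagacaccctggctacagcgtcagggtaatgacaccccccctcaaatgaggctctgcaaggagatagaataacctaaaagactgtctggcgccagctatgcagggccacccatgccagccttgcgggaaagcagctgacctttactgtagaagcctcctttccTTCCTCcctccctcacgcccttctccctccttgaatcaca
Fcrls: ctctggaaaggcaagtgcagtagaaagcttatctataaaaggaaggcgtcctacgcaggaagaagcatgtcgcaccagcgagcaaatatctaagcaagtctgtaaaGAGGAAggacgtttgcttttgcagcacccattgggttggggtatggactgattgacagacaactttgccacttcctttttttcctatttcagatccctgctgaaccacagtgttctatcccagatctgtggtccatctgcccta
The motif starts at position -33 in Ccl3, -40 in Trem2 and -144 in Fcrls, counted from the start site. RefSeq gave 30 windows for 26 of the 35 members, some genes having more than 1 start site. GAGGAA on either strand was in 18 of the 30 windows (60%), belonging to 17 genes, against 23.3% of all 32851 promoter windows of the same length. TATAAA was in 7 of the 30 windows (23.3%, against 12.4% of all windows), TGANTCA, the AP-1 element, in 3 (10%, against 6.7%) and the NF-kappaB consensus in 4 (13.3%, against 7.3%). All motifs were searched on both strands, and matches of different motifs were allowed to overlap. A match describes the letters only.

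Library totals ran from 13004178 to 25741879 estimated counts. Thalamic relay neuron markers summed to between 2965 and 5600 CPM (counts scaled to a common library total) in the 31 libraries, and markers of the neighbouring hypothalamus and midbrain to between 55.8 and 559 CPM. The library labelled SIR female 5 held the Y-linked gene Ddx3y at 41.6 CPM, within the 31.5 to 50.2 CPM of the male libraries and against at most 0.0481 CPM in the other female libraries, so its sex-linked genes go against its label. The library control female 20 held choroid plexus markers at a summed 1928 CPM, against at most 287 CPM in any other library. The members that passed a test are therefore given with and without each of these libraries.

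Of the 35 members, 31 had counts in all 31 libraries, and 32 passed the filter on low counts. Levels between genes are compared here in TPM, a transcript abundance that accounts for transcript length. Ctss, the lysosomal protease cathepsin S, had the highest median at 114 TPM (range 93.4 to 139.5). It was followed by the C1q chains C1qa (84.2 TPM), C1qb (79.2 TPM) and C1qc (61.5 TPM), by Csf1r (45.3 TPM), by Tyrobp (40.9 TPM) and by the purinergic receptor P2ry12 (34.4 TPM). The ranges of C1qa (69.5 to 97.2 TPM) and C1qb (61.2 to 97.5 TPM) overlapped almost whole, so the ranges alone give this pair no order. Within libraries, the ratio of C1qa to C1qb had a median of 1.05 and ran from 0.928 to 1.18. All 10 homeostatic markers had counts in every library, with medians between 5.94 TPM (Gpr34) and 34.4 TPM. The cytokines lay at the low end, with medians of 1.02 TPM for Ccl3, 0.446 TPM for the interleukin gene Il1a, 0.155 TPM for the chemokine Ccl4, 0.0693 TPM for Il1b and 0 TPM for Tnf. Relative spread over the 31 libraries, as the coefficient of variation, had a median of 10.8% in the homeostatic markers, 11.5% in the general myeloid genes and 11.2% in complement. It was 31% in the perivascular class and 58.5% in the cytokines, against 11.8% over all genes tested.

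**Figure D1:**
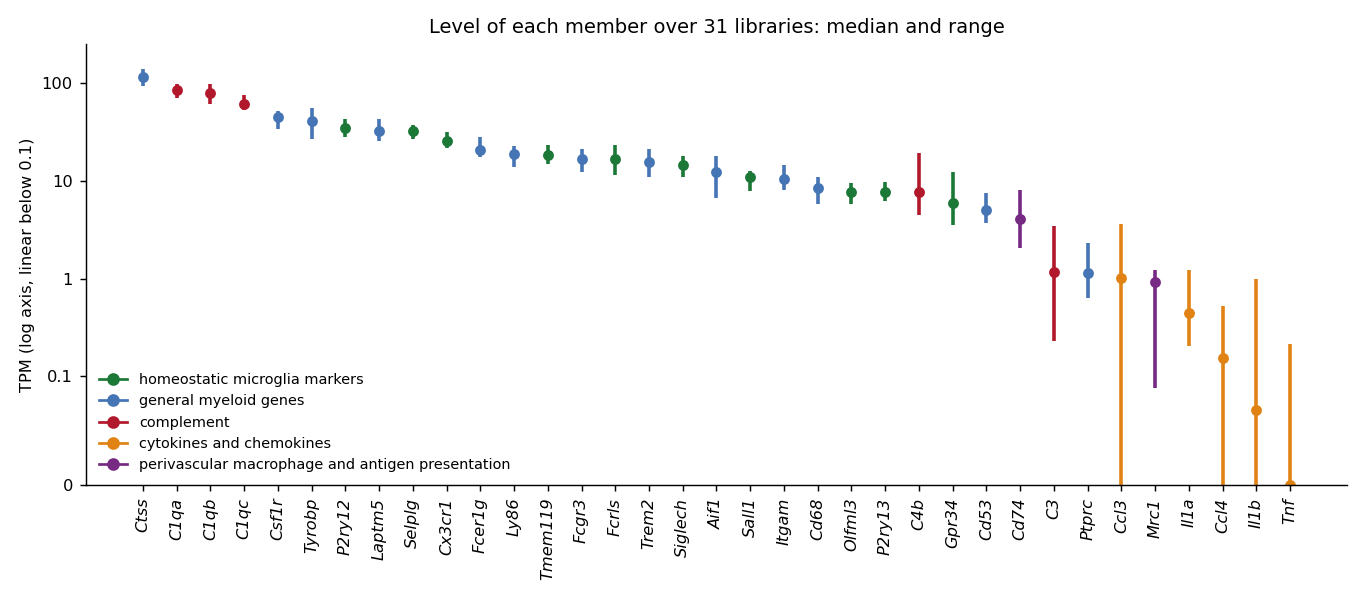
Level of each of the 35 members in TPM (vertical axis, logarithmic above 0.1 and linear below), as the median (point) and range (line) over 31 libraries, coloured by class. Ctss and the C1q chains lie highest, and the 5 cytokines and chemokines lie at or below a median of 1.02 TPM.

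Ccl3, a chemokine that draws and activates macrophages and other leukocytes, was the member with the largest difference by maternal housing. Its level in females was 0, 0.1502 and 0.459 CPM (lowest, median and highest) in the 8 SIR libraries and 0.320, 0.525 and 1.07 CPM in the 8 controls. The groups overlapped only through the library labelled SIR female 5, which held the 0.459 CPM. The other 7 SIR female libraries, at up to 0.264 CPM, lay below all 8 controls. Ccl3 fell in SIR females, from a mean of 0.583 ± 0.248 to 0.181 ± 0.139 CPM (SD, n = 8 and 8), with a log2 fold change of -1.69 ± 0.36 (SE, edgeR adjusted p = 0.00651, below the control median in 8 of 8 SIR libraries). It was the only 1 of the 32 tested members to pass in females, where 4.62% of all 14886 genes passed. An exact 2-sided permutation test of the CPM values, chosen after seeing the data, gave p = 0.000777. This p is not adjusted for the choice of Ccl3 from the 32 tested members. The log2 fold change was -1.72 (edgeR adjusted p = 0.00630) without control female 20 and -2.05 (edgeR adjusted p = 0.00138) without SIR female 5. In bulk tissue, fewer cells of a type and less RNA per cell cannot be told apart.

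The depth behind these values was small. Ccl3 had 34 counts in all in the 8 SIR female libraries (0 to 11 a library) and 103 in the 8 control female libraries (4 to 25 a library). A count of 0, taken as an upper limit of 3 counts, allows 0.117 CPM in the deepest library and 0.232 CPM in the shallowest, counting error only.

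In males, Ccl3 stood at 0.240, 0.315 and 0.498 CPM in the 7 SIR libraries and at 0.126, 0.199 and 0.413 CPM in the 8 controls, with overlapping groups. The male log2 fold change of 0.54 ± 0.38 did not pass (edgeR adjusted p = 0.494, above the control median in 7 of 7 SIR libraries). The male effect exceeded the female effect by 2.23 ± 0.52 on the log2 scale (interaction, edgeR adjusted p = 0.0140). Ccl3 was the only 1 of 32 members called in the interaction, where 2.83% of all genes were called. The interaction was 2.26 (edgeR adjusted p = 0.0144) without control female 20 and 2.58 (edgeR adjusted p = 0.00356) without SIR female 5. Control females held the highest Ccl3 of the 4 groups and SIR females the lowest, with both male groups between them.

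Markers of other cell types also differed in the female comparison. Of 10 oligodendrocyte markers, 6 were lower in SIR females, and their sum ran from 7867 to 11110 CPM there against 10480 to 12660 CPM in control females. Of 11 thalamic relay neuron markers, 3 were higher, with sums of 3880 to 4824 CPM in SIR and 2965 to 5087 CPM in control females. Of 11 tested choroid plexus markers, all had a negative log2 fold change in females (median -1.63) and 2 were lower, and without control female 20 the median was -0.04 with 1 higher. Of 13 tested hypothalamus and midbrain markers 1 was higher and 2 were lower. Of 16 endothelial and mural markers 2 were lower, and of 9 tested leptomeningeal markers 1 was lower. Of 12 astrocyte markers 1 was higher, and of 11 neuron markers 1 was higher. Without SIR female 5, 4 oligodendrocyte, 0 choroid plexus, 0 leptomeningeal and 0 astrocyte markers were called in females. Without control female 20, 5 oligodendrocyte and 0 leptomeningeal markers were called, and 1 astrocyte marker was higher and 1 lower. In the interaction, 8 of the 10 oligodendrocyte markers were called, with a housing effect more positive in males than in females. So were 2 endothelial and mural markers, 1 leptomeningeal marker and 1 astrocyte marker, in the same direction. Called in the other direction were 3 thalamic relay neuron markers and 1 hypothalamus and midbrain marker. The part of these markers in the Ccl3 result was not tested. Markers of neutrophils and blood leukocytes were close to 0, with a sum over 22 genes of 0.547 to 1.84 CPM in SIR females and 0.951 to 2.70 CPM in control females. The neutrophil gene Camp had 0 counts in all 31 libraries.

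**Figure D2:**
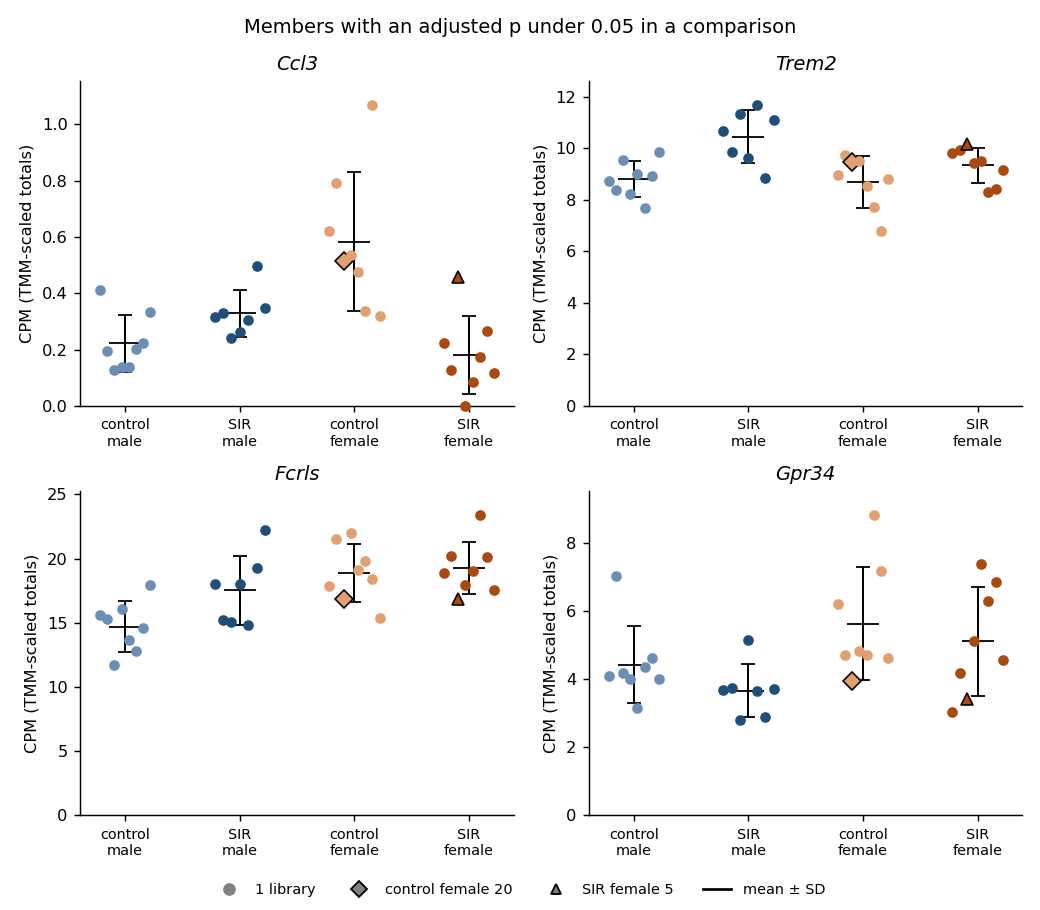
CPM of the 4 members that passed in a comparison, 1 point per library by group, with the group mean and SD. The triangle is the library labelled SIR female 5 and the diamond is control female 20. For Ccl3, 7 of 8 SIR female libraries lie below every control female library, while for Trem2, Fcrls and Gpr34 all groups overlap.

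Of the other cytokines, only Il1a, an interleukin released by damaged and activated cells, had enough counts to be tested. It had 3 to 20 counts a library and stood at 0.405 ± 0.197 CPM in SIR males, 0.333 ± 0.156 in SIR females, 0.341 ± 0.172 in control males and 0.426 ± 0.236 in control females (SD, n = 7, 8, 8 and 8). It did not pass in females (log2 fold change -0.37 ± 0.34, edgeR adjusted p = 0.588) or in males (0.24 ± 0.36, edgeR adjusted p = 0.803), and the female value was -0.11 without control female 20 and -0.28 without SIR female 5. Tnf, the tumour necrosis factor gene, had at most 4 counts in any library and 0 in 21 of 31. Il1b, an inflammasome product, had at most 4 counts and 0 in 13 libraries, and Ccl4, a chemokine related to Ccl3, had at most 3 and 0 in 14. For these 3 genes no difference was detectable at this depth.

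Trem2 was the only 1 of 32 members called over both sexes together, where 4.55% of all genes were called. It stood at 8.84, 10.7 and 11.7 CPM (lowest, median and highest) in SIR males against 7.69, 8.82 and 9.86 CPM in control males, and at 8.31, 9.49 and 10.2 CPM in SIR females against 6.80, 8.89 and 9.75 CPM in control females. The groups overlapped in both sexes. Trem2 rose 1.13-fold with SIR, a log2 fold change of 0.18 ± 0.05 (SE, edgeR adjusted p = 0.0473), and 12 of 15 SIR libraries lay above the control median. Within males alone the log2 fold change was 0.25 ± 0.08 (edgeR adjusted p = 0.0719, or 0.0393 without SIR male 14, above the control median in 7 of 7), and within females 0.10 ± 0.07 (edgeR adjusted p = 0.450, 6 of 8). The difference between the sexes did not pass (0.15 ± 0.10, edgeR adjusted p = 0.556).

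The Trem2 call lies close to the threshold. Over both sexes it was 0.19 (edgeR adjusted p = 0.0314) without control female 20 and 0.17 (edgeR adjusted p = 0.0774) without SIR female 5. It held when SIR male 4, 8 or 14, SIR female 10 or 11, control female 18, 20 or 24, or control male 27 or 28 was left out, and was lost (edgeR adjusted p from 0.0510 to 0.0799) when any 1 of the other 21 libraries was left out. Beside it, 2 of 11 tested choroid plexus markers and 2 of 13 tested hypothalamus and midbrain markers were lower in SIR over both sexes. Of 11 neuron markers, 1 was higher. The part of these markers in the result was not tested.

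Tyrobp, the adaptor of Trem2, and Fcer1g, the related signalling adaptor of Fc receptors, did not pass in any comparison. In males, Fcer1g stood at 5.81, 6.57 and 8.25 CPM in SIR and at 4.96, 5.38 and 7.71 CPM in controls, with a log2 fold change of 0.26 ± 0.09 (edgeR adjusted p = 0.115). All 7 SIR males lay above the highest of the other 7 controls, 5.67 CPM, once control male 28 at 7.71 CPM was set aside. Without control male 28, the male difference passed at 0.34 (edgeR adjusted p = 0.0282), and so did the interaction at 0.45 (edgeR adjusted p = 0.0190, against 0.0988 with all libraries). The male difference did not pass in 40 of 41 alternatives, nor did the interaction in 39 of 41. Tyrobp in males was 10.2, 11.1 and 14.7 CPM in SIR and 7.85, 9.51 and 12.1 CPM in controls (log2 fold change 0.23 ± 0.11, edgeR adjusted p = 0.254). The other myeloid genes called in no comparison were Csf1r, the actin-binding protein gene Aif1, the integrin Itgam, Ctss, the lysosomal proteins Cd68 and Laptm5, the Toll-like receptor partner Ly86, the tetraspanin Cd53, the phosphatase Ptprc (CD45) and the Fc receptor Fcgr3. Of these, Aif1 had the largest log2 fold change over both sexes, 0.21 ± 0.10 (edgeR adjusted p = 0.183), from 3.37 to 3.92 CPM.

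In males no member was called by edgeR, where 1.33% of all genes were called. Of the 32 tested, 9 had an unadjusted p under 0.05 (against 17.6% of all genes), and Trem2 alone was called by DESeq2 and by limma-voom. The log2 fold changes of SIR minus control in males had a median of 0.14 over the 32 members, with 28 above 0, against a median of -0.001 and 49.6% above 0 over all genes. In females the median was -0.05, with 24 of 32 below 0, against -0.011 and 46.5% above 0 over all genes. Among marker lists of other cells, the oligodendrocyte, endothelial and mural, and leptomeningeal lists had medians of the same signs. Thalamic relay neuron markers had the opposite signs, with medians of -0.16 in males and 0.09 in females. Medians of astrocyte, neuron and red blood cell markers were above 0 in both sexes. Those of choroid plexus and of hypothalamus and midbrain markers were below 0 in both. Some of these female signs rested on 1 library. Without control female 20, the female median of the hypothalamus and midbrain markers was 0.68, with 10 of 13 above 0. Without SIR female 5, the female median of the red blood cell markers was -0.08, with 5 of 6 below 0. In males 10 of 10 oligodendrocyte markers (median 0.20, 2 called), 14 of 16 endothelial and mural markers (median 0.16) and 8 of 9 leptomeningeal markers (median 0.28) lay above 0. In females 9 of 10 oligodendrocyte markers (median -0.26, 6 called) and 8 of 9 leptomeningeal markers (median -0.32) lay below 0. Whether the members' medians differ from these was not tested. Since the member genes share cells of origin, they are not independent of each other, and no test was run over them.

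By class, the male median was 0.08 for the homeostatic markers (7 of 10 above 0), 0.12 for the general myeloid genes (12 of 13) and 0.17 for complement (5 of 5). The female medians were -0.05 (2 of 10 above 0), -0.04 (5 of 13) and -0.02 (1 of 5). Without control female 20 the female medians of the general myeloid genes and of complement changed sign, to 0.003 (7 of 13 above 0) and 0.025 (3 of 5), and that of the homeostatic markers was -0.05 (3 of 10). Without SIR female 5 the 3 female medians were -0.047, -0.04 and -0.07. Without control female 20, 13 of the 32 members lay above 0 in females, with a median of -0.03, and 28 in males, with a median of 0.145. Without SIR female 5, 6 of 32 lay above 0 in females, with a median of -0.045. Over the 32 members, both medians kept their sign under the other scalings: 0.14 and -0.05 with RLE size factors, and 0.16 and -0.05 with upper-quartile scaling.

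**Figure D3:**
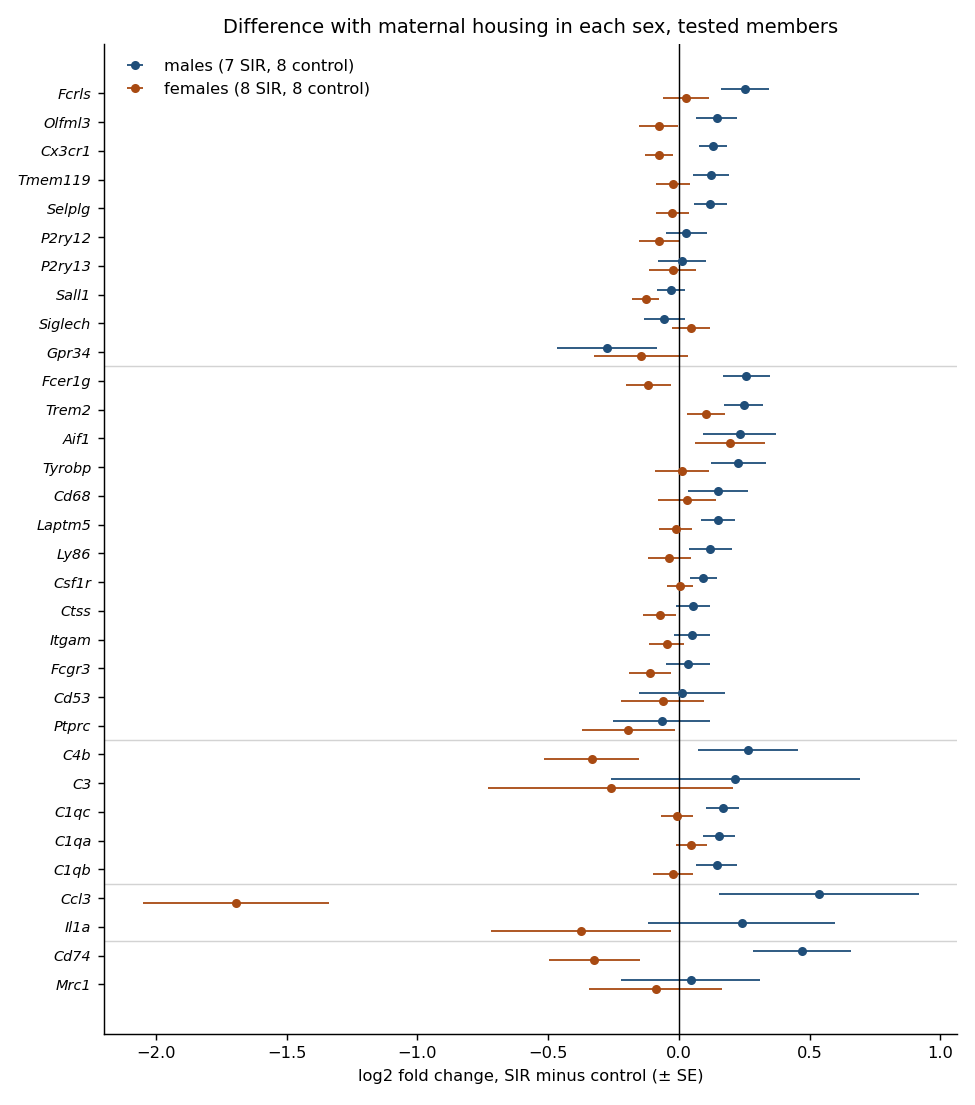
Log2 fold change of SIR minus control with its SE for the 32 tested members, in males (blue) and females (orange), grouped by class with lines between classes. In males 28 of 32 points lie above 0 and in females 24 lie below 0, and Ccl3 in females, at -1.69, lies apart from the rest.

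Summed over a class, the homeostatic markers reached 204 ± 13.2 CPM in control males, 217 ± 7.53 in SIR males, 227 ± 6.53 in control females and 218 ± 9.81 in SIR females (SD, n = 8, 7, 8 and 8). The general myeloid genes summed to 280.0 ± 20.9, 300.5 ± 16.6, 289.8 ± 17.7 and 284.9 ± 12.4 CPM in the same order. All groups overlapped in both sums. Without control female 20, the control female sums were 225 ± 7.33 and 284 ± 12.5 CPM.

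**Figure D4:**
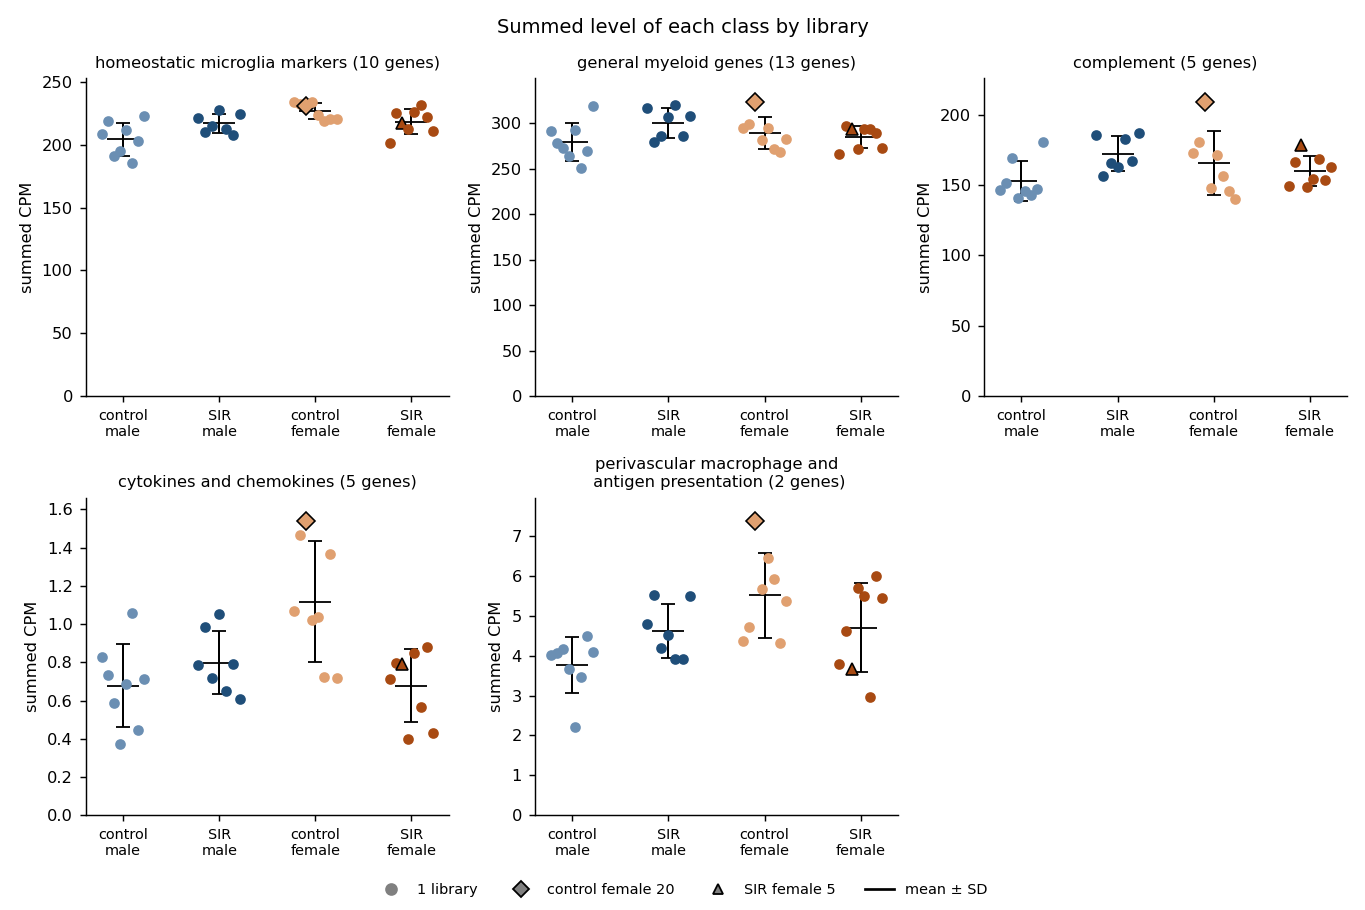
Summed CPM of each class, 1 point per library by group, with the group mean and SD, on axes that start at 0. The groups overlap in each class, and control female 20 (diamond) is the highest library of all for each class other than the homeostatic markers.

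The 3 C1q chains are encoded by neighbouring genes and assemble into 1 protein. C1qa stood at 45.8, 52.1 and 59.6 CPM in SIR males, 40.9, 45.8 and 57.2 in control males, 44.6, 47.7 and 52.7 in SIR females and 41.8, 46.1 and 52.5 in control females, with overlap among all groups. Over both sexes its log2 fold change was 0.10 ± 0.04 (edgeR adjusted p = 0.161, above the control median in 13 of 15) and 0.12 (edgeR adjusted p = 0.0878) without control female 20 and 0.09 (edgeR adjusted p = 0.238) without SIR female 5. C1qb and C1qc did not pass either, with 0.06 ± 0.06 (edgeR adjusted p = 0.548) and 0.08 ± 0.04 (edgeR adjusted p = 0.283). The chains moved together from library to library. In TPM, the ratio of C1qa to C1qb ran from 0.928 to 1.18 (median 1.05) over the 31 libraries and that of C1qc to C1qb from 0.668 to 0.874 (median 0.789).

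C3, the central complement protein, and C4b, which acts between C1q and C3, varied more between libraries. C3 had a coefficient of variation of 69.5% and C4b of 32.5%. C3 stood at 0.570, 2.68 and 6.05 CPM in SIR males, 0.942, 1.96 and 5.31 in control males, 1.101, 1.74 and 2.94 in SIR females and 0.385, 1.68 and 6.76 in control females. C4b stood at 16.23, 24.05 and 27.02 CPM in SIR males, 13.8, 19.8 and 23.8 in control males, 18.8, 24.03 and 26.1 in SIR females and 17.7, 25.4 and 53.4 in control females. Control female 20 was the highest of all 31 libraries for both genes. Neither gene passed in any comparison.

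The sign of C3 depended on that library. In females its log2 fold change was -0.26 ± 0.47 (edgeR adjusted p = 0.810) with control female 20 and 0.25 (edgeR adjusted p = 0.794) without it, and -0.19 (edgeR adjusted p = 0.880) without SIR female 5. For C4b it was -0.33 ± 0.18 (edgeR adjusted p = 0.306) and -0.14 (edgeR adjusted p = 0.643), and -0.30 (edgeR adjusted p = 0.419) without SIR female 5. Of the 5 complement genes, 4 were higher in control female 20 than in each other control female, as were 11 of all 35 members. The summed choroid plexus markers, 12 genes, ran from 30.6 to 1928 CPM in control females, 31.3 to 287 in SIR females, 33.1 to 81.7 in control males and 24.4 to 45.2 in SIR males. Their part in the C3 and C4b levels was not tested. The near-identical gene C4a was not analysed here, so the C4b counts may hold reads of both.

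**Figure D5:**
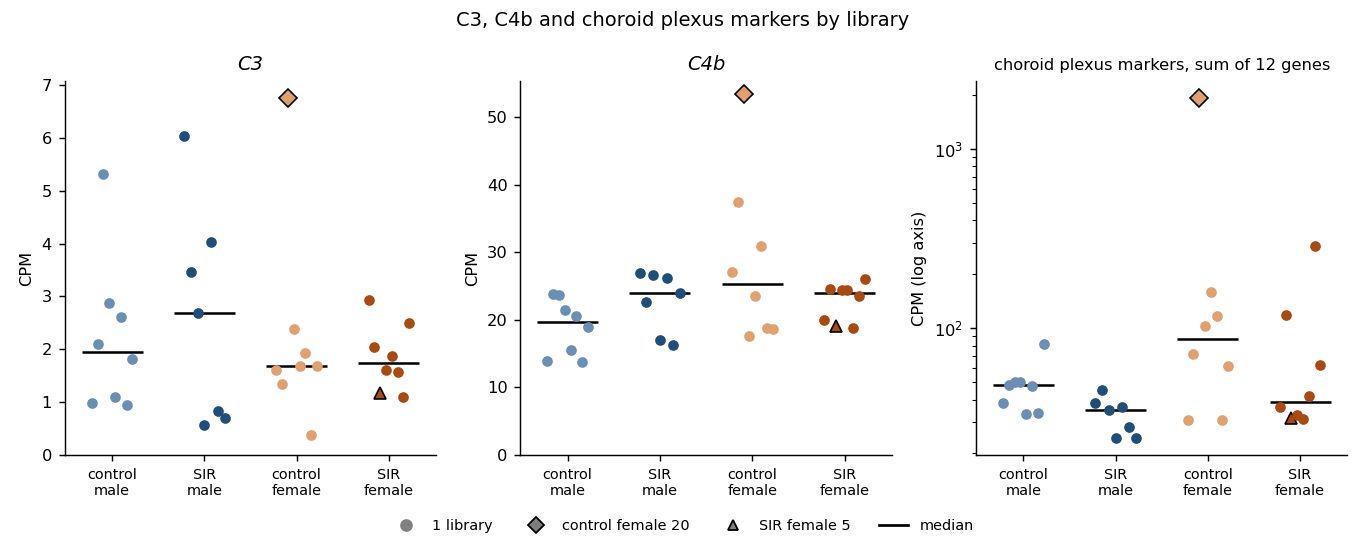
CPM of C3 and of C4b and the summed CPM of 12 choroid plexus markers (logarithmic axis), 1 point per library by group, with the group median as a line. Control female 20 (diamond) is the highest library in all 3 panels, at 6.76, 53.4 and 1928 CPM.

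Between the sexes, 2 of 32 members were called, both lower in males, where 10.1% of all genes were called. Fcrls, an Fc receptor-like surface protein of microglia, stood at 11.72, 14.95 and 17.95 CPM in control males and 14.85, 18.01 and 22.23 in SIR males, against 15.36, 18.77 and 21.99 in control females and 16.88, 18.95 and 23.43 in SIR females. All 4 groups overlapped, with control males lowest by median. Group means were 14.7 CPM in control males against 18.9 in control females, and 17.5 in SIR males against 19.3 in SIR females. Fcrls was 1.19-fold lower in males, a log2 fold change of -0.25 ± 0.06 (edgeR adjusted p = 0.0125, 13 of 15 males below the female median). It was -0.26 without control female 20 (edgeR adjusted p = 0.00839) and -0.26 without SIR female 5 (edgeR adjusted p = 0.0107). SIR female 5 had the lowest Fcrls of the SIR female libraries, 16.9 CPM. Without that library, SIR minus control in males was 0.25 ± 0.09 and did not pass (edgeR adjusted p = 0.137). Nor did the interaction (0.20 ± 0.13, edgeR adjusted p = 0.478).

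Gpr34, an X-linked receptor for a lysophospholipid, stood at 3.17, 4.13 and 7.03 CPM in control males and 2.80, 3.68 and 5.17 in SIR males, against 3.96, 4.77 and 8.84 in control females and 3.03, 4.85 and 7.40 in SIR females. The groups overlapped, and the male medians lay below both female medians. Gpr34 was 1.33-fold lower in males, a log2 fold change of -0.41 ± 0.13 (edgeR adjusted p = 0.0401, 13 of 15 males below the female median). It was -0.44 without control female 20 (edgeR adjusted p = 0.0212) and -0.45 without SIR female 5 (edgeR adjusted p = 0.0263). The call was lost, with adjusted p from 0.0503 to 0.0747, without SIR male 1, 4, 6, 13 or 15, SIR female 7, 9, 10 or 11, control male 16, 21, 22, 23, 27 or 28, or control female 17, 29 or 30. Gpr34 lies within Cask on the opposite strand, and the labels do not say whether counting used the strand of the reads.

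The other 8 homeostatic markers passed in no comparison. They are Cx3cr1, P2ry12, the related receptor P2ry13, the membrane protein Tmem119, the lectin Siglech, the secreted protein Olfml3, the adhesion ligand Selplg and Sall1, a transcription factor that maintains microglial identity. Of the 10 markers, 9 had a negative log2 fold change in males minus females, with a median of -0.10, against -0.005 and 48.2% above 0 over all genes. Sall1 had 28.6 CPM as the median in SIR females and 31.4 in control females, with overlapping ranges (27.8 to 30.4 and 28.5 to 37.5 CPM). Its female log2 fold change was -0.13 ± 0.05 (edgeR adjusted p = 0.154, below the control median in 8 of 8), and -0.14 and -0.13 without control female 20 and without SIR female 5. Beside the sex difference, 5 of 10 oligodendrocyte markers and 5 of 11 tested choroid plexus markers were lower in males. Of 12 astrocyte markers, 4 were lower and 1 was higher in males. Of 16 endothelial and mural markers 1 was higher, and of 9 tested leptomeningeal markers 1 was lower. The part of these markers was not tested.

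Cd74, the invariant chain that escorts MHC class II proteins, stood at 1.74, 2.64 and 3.91 CPM in SIR males and 1.35, 1.85 and 2.62 in control males, and at 1.96, 2.72 and 3.66 in SIR females and 2.30, 3.44 and 4.90 in control females. The groups overlapped in both sexes. Its log2 fold change was 0.47 ± 0.19 in males (edgeR adjusted p = 0.173) and -0.32 ± 0.18 in females (edgeR adjusted p = 0.303), with an interaction of 0.79 ± 0.26 (edgeR adjusted p = 0.0861). The interaction passed at 0.88 (edgeR adjusted p = 0.0495) without SIR male 14, and was 0.70 (edgeR adjusted p = 0.126) without control female 20, which held the highest Cd74 of all libraries, and 0.78 (edgeR adjusted p = 0.107) without SIR female 5. Males minus females was -0.38 ± 0.13 (edgeR adjusted p = 0.0529). That sex difference passed when SIR female 2 or 10, SIR male 4, control female 17, 18 or 30, or control male 21 or 28 was left out (edgeR adjusted p from 0.0314 to 0.0478). Mrc1, the mannose receptor of perivascular macrophages, ran from 0.207 to 2.86 CPM and did not pass in any comparison.

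Other genes of the same pathways were examined from lists of context genes, whose counts stand beside 4.55% of all genes called over both sexes, 1.33% in males and 4.62% in females. Of 59 tested microglia-enriched genes outside the members, 1 was called in females and none over both sexes or in males, where 8 and 9 had an unadjusted p under 0.05 (22.1% and 17.6% of all genes did). These counts do not exceed the shares over all genes. The 1 called was Irf5, an interferon regulatory factor, at 4.36 CPM in control and 5.997 in SIR females (log2 fold change 0.45 ± 0.13, edgeR adjusted p = 0.0416). Its call was lost without control female 20 (edgeR adjusted p = 0.0602) and without SIR female 5 (edgeR adjusted p = 0.0712). The medians of the 59 were 0.08 in males (43 above 0) and -0.05 in females (18 above 0). Between the sexes, 3 of the 59 were lower in males, among them Rasgrp3 and the transforming growth factor receptor Tgfbr1, with log2 fold changes of -0.25 and -0.17.

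Among 15 tested ligands and receptors through which neurons and glia signal to microglia, none was called by maternal housing. Fractalkine, Cx3cl1, the ligand of Cx3cr1, stood at 667 to 734 CPM as group means (log2 fold change over both sexes 0.10 ± 0.06, edgeR adjusted p = 0.354). Among 37 tested cytokine and chemokine genes and their receptors, 1 was called by housing, Il1rap, the accessory chain of the interleukin 1 receptor. Its group means were 55.3 CPM in control and 49.1 in SIR males, and 59.5 in control and 47.7 in SIR females. Il1rap was lower in SIR over both sexes, with a log2 fold change of -0.24 ± 0.06 (edgeR adjusted p = 0.0319). It was -0.25 both without control female 20 (edgeR adjusted p = 0.0243) and without SIR female 5 (edgeR adjusted p = 0.0446). Within females it was -0.32 ± 0.09 (edgeR adjusted p = 0.0370), and within males it did not pass (-0.17 ± 0.09, edgeR adjusted p = 0.339).

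Among 29 tested complement components and regulators outside the members, 1 fell over both sexes and 4 were called in females, 3 higher and 1 lower. The 3 higher genes were C1ql2 and C1ql3, synaptic proteins with a C1q-like domain, at 1.1 ± 0.28 and 0.77 ± 0.22, and Srpx2, a secreted protein that binds C1q, at 0.64 ± 0.14 on the log2 scale. All 3 passed also without control female 20 and without SIR female 5. C1ql3 and Srpx2 were also called in the interaction, at -1.36 ± 0.32 (edgeR adjusted p = 0.0165) and -1.07 ± 0.20 (edgeR adjusted p = 0.00212). The gene that fell over both sexes was Csmd3, a large membrane protein with domains of the kind found in complement regulators (log2 fold change -0.18 ± 0.05, edgeR adjusted p = 0.0451), and its call was lost without SIR female 5 (edgeR adjusted p = 0.0642).

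Of 22 tested disease-associated microglia genes, described around amyloid plaques, 1 was called over both sexes, a share near the 4.55% of all genes. This was Ctsz, the protease cathepsin X, with group means of 31.2 and 31.1 CPM in control males and females and 36.1 and 34.9 CPM in the SIR groups (log2 fold change 0.19 ± 0.05, edgeR adjusted p = 0.0360). It was 0.21 (edgeR adjusted p = 0.0163) without control female 20 and 0.18 (edgeR adjusted p = 0.0562) without SIR female 5. In females, Timp2, a metalloproteinase inhibitor, rose by 0.31 ± 0.09 and Igf1, a growth factor, fell by 0.48 ± 0.14 on the log2 scale. The Igf1 call was lost without SIR female 5 (edgeR adjusted p = 0.0779). Of 8 tested perivascular macrophage genes, 2 fell in females, the endocytic adaptor Dab2 (-0.27 ± 0.07) and the transcription factor Maf (-0.40 ± 0.11), and neither passed without control female 20 (edgeR adjusted p = 0.0529 and 0.0562). Without SIR female 5, Maf lost its call (edgeR adjusted p = 0.0612) and Dab2 kept it (edgeR adjusted p = 0.0203). Of 7 tested genes in the list for MHC class II, which also holds the member Ctss, none passed in any comparison. Their count at an unadjusted p under 0.05 was 0 over both sexes, 1 in males and 0 in females.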

How the data were processed

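Gene expression was measured by RNA-seq of thalamus in 31 libraries. Per the labels' protocols, RNA came from the Qiagen AllPrep kit and libraries from Illumina's stranded mRNA kit. Per the submitters' processing notes, FastQC and kallisto were run on GRCm39, and the tools' versions were not given in the sources used here. For 105878 transcripts the deposited tables hold the effective length and the estimated count, per the file headers. They also hold TPM, which the authors' tool scaled to the same total in every library. Of these, 104949 were matched by identifier to GENCODE M21 (GRCm38), giving 25497 genes. Gene totals are sums of the estimated counts, rounded to whole numbers. Every pair of libraries in a group differed by more than sampling noise.

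With edgeR 4.0.16 in R 4.3.3, 14886 genes passed filterByExpr, were scaled by TMM and were fitted by the robust quasi-likelihood method with 1 mean for each of the 4 groups. P-values were adjusted over all genes by the Benjamini-Hochberg method, with a threshold of 0.05. CPM values use TMM-scaled totals. Both-sex values average the male and female differences, the interaction is their difference, and males minus females averages the housing groups. The alternatives were RLE and upper-quartile scaling, no filter, a filter of 1 CPM in 15 libraries, limma-voom (sample-weighted), DESeq2 1.42.0 and limma-trend on log2(TPM + 1) (limma 3.58.1), effective length offsets, removal of a length trend, the 2 shallowest libraries left out, each library left out in turn, and an exact permutation test of Ccl3, chosen after seeing the data.

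The members, lists and tests were chosen with earlier results of these data known. Named are members that passed in a comparison, the 3 members per direction with the smallest p in each comparison, and context genes that passed. Other members named beside them, such as C3 and C4b, were chosen after their values were seen. Single results for a few context genes are not reported here. The values of the 14 members with an overlapping annotated gene are uncertain. For Cx3cr1, P2ry12, P2ry13, Gpr34, Csf1r, Il1a and Il1b an overlapping gene lies on the opposite strand, and the labels do not say whether counting used strand. The others overlap only annotated genes on their own strand, which counting by strand would not tell apart.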

Additional observations from a re-analysis of the deposited data

Results flagged for a closer look

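Within the 4 groups, the 35 members gave 140 sets of values, and 18 had a single library set apart from its group by more than the 95% critical gap of Dixon's test. For normally distributed values, chance alone sets about 1 in 20 such groups apart. Sets of mostly 0 counts, such as Tnf, are not so distributed, so the 18 cannot be weighed against that share. Control male 28 was the highest control male for Fcer1g (7.71 CPM), C1qa (57.2 CPM) and C1qb (57.4 CPM). Control female 20 was the highest control female for Itgam (28.5 CPM), C3 (6.76 CPM) and Il1a (0.932 CPM). Among homeostatic markers, P2ry13 was lowest in SIR male 13 (7.34 CPM), Sall1 was lowest in SIR male 15 (23.3 CPM) and Tmem119 was highest in control male 23 (27.1 CPM). Gpr34 was highest in SIR male 8 (5.17 CPM) and in control male 19 (7.03 CPM) within their groups. Aif1 was lowest in control male 25 (2.07 CPM), Mrc1 was lowest in control male 23 (0.207 CPM) and C3 was highest in control male 21 (5.31 CPM). Ccl3 was highest in SIR male 14 (0.498 CPM). Tnf stood apart in SIR male 13 (0.0434 CPM), control male 19 (0.0488 CPM) and control female 31 (0.16 CPM), which held 1, 1 and 2 counts.

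The effect of maternal housing on Ccl3 differed between the sexes by a test of the difference itself, at 2.23 on the log2 scale.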

How the results depend on the processing

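The number of genes called moved with the method. Over both sexes it was 678, and 382 with no filter, 1132 with DESeq2, 1240 with limma-voom, 312 with limma-trend on TPM, 78 with the length trend removed and 392 without the 2 shallowest libraries. In males it was 198, and 79, 606, 629, 93, 36 and 379 under the same alternatives. In females it was 688, and 1185 with limma-voom, 270 with limma-trend and 458 without the 2 shallowest libraries. In the interaction it was 422, and 713 with limma-voom, 223 with limma-trend and 277 with effective length offsets. Between the sexes it was 1502, and 2963 with limma-voom and 688 with limma-trend. With each library left out in turn it ran from 220 (control male 25) to 1042 (control female 20) over both sexes, 0 (control male 22) to 506 (control male 27) in males, 360 (SIR female 3) to 829 (control female 20) in females, 285 to 532 in the interaction and 1045 (SIR male 1) to 2200 (control female 20) between the sexes.

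Of the members, 1 was called over both sexes, and 0 with no filter, limma-trend, the length trend removed or the 2 shallowest libraries left out, and 2 with limma-voom. In males 0 were called, and 1 with DESeq2 and with limma-voom. In females 1 was called and in the interaction 1, and 0 in both with the filter of 1 CPM, which removed Ccl3, and 2 in the interaction with limma-voom. Between the sexes 2 were called, and 1 with no filter, limma-trend, length offsets or the 2 shallowest libraries left out, and 3 with DESeq2 or the length trend removed, and 4 with limma-voom. With each library left out in turn the counts ran from 0 to 1, 0 to 1, 1 to 1, 1 to 2 and 1 to 3 in the same order of comparisons.

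Ccl3 kept its call in females under all alternatives that tested it, with log2 fold changes from -2.24 to -0.89 and adjusted p from 0.000504 to 0.0170. Trem2 over both sexes kept its direction in 41 of 41 alternatives, from 0.14 to 0.20, and lost its call in 25, with adjusted p from 0.0139 to 0.144 over all 41. Fcrls kept its sex call in 41 of 41, and Gpr34 lost its in 22. Sall1 in males, -0.03, reversed to 0.034 with the length trend removed and to 0 without the 2 shallowest libraries, and ran from -0.051 to 0.017 with each library left out in turn. No other tested member value that the naming rule covers reversed. Differences in Tnf, Il1b and Ccl4 are limited by depth. No paired analysis was possible, because the labels used here name no litter and each library number occurs only once in the series.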
